A study of Mus musculus with 8 samples.

Results

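Gene expression was compared between J1 mouse embryonic stem (ES) cells transfected for 48 h with a short hairpin RNA (shRNA) against Rif1 and J1 cells transfected with a control shRNA. The members were the 2 arrays titled short-Rif1 KD and the 2 titled short-Con, which were 4 of the 8 arrays of the series. J1 is an ES cell line of the 129S4/SvJae background. Both groups were grown on feeder cells, transfected with lipofectamine 2000 and hybridised to Affymetrix mouse arrays, so feeders, lipid and a hairpin construct are common to knockdown and control. One protocol label also mentions virus or siRNA and a selection step. Both groups were of a single cell line, the hairpin sequences are not given in the sources used here, and the labels do not say that the arrays of a group came from separate cultures. The p-values therefore measure only the spread between these arrays, which may be technical.

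Rif1 encodes a large protein that was first found at telomeres. It recruits the phosphatase PP1 to replication origins, sets the timing of replication, acts at DNA breaks with 53BP1, and in mouse ES cells is known to hold back genes of the 2-cell embryo. Cultures of ES cells hold a small and changing fraction of cells that express such genes, among them the Zscan4 family. Many of these genes lie in clusters of near-identical copies, so array probes often cannot tell the members apart.

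The deposited signal is a linear intensity per probe set, a group of short probes that reads 1 transcript. Array medians lay between 61.0 and 69.3, and the correlation of log2 signals was 0.994 between the control arrays, 0.991 between the Rif1 shRNA arrays and 0.986 to 0.991 between groups. Fold changes are Rif1 shRNA over control on the log2(signal + 18) scale, which shrinks the change of dim probe sets. The ratio of 3' to 5' control probe signal, a measure of RNA integrity, was 2.61 to 2.71 for Actb and 1.39 to 1.42 for Gapdh on control arrays. On Rif1 shRNA arrays it was 2.17 to 2.18 and 1.29 to 1.30. The ratio thus moved with the group, and its part in the results was not tested. All 8 ES cell markers were bright and steady, as described with the steady genes.

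Rif1 itself was lower on both Rif1 shRNA arrays at all 4 of its probe sets. The brightest, 1429491_s_at, read 2614 and 3222 on the control arrays and 1259.8 and 1297 on the Rif1 shRNA arrays. Its level was 44.4% of control on the offset scale (log2 fold change -1.17, SE 0.10, adjusted p 0.00116). The groups did not overlap, and the control arrays differed from each other more than the Rif1 shRNA arrays did. Probe set 1429490_at read 1013 and 1095 against 392 and 405 (38.8% of control, adjusted p 0.000131), and 1437179_at read 1225 and 1564 against 600.2 and 566 (42.8%, adjusted p 0.0023). The dimmest, 1442939_at, read 404 and 551 against 177 and 238 (45.7%, adjusted p 0.0275). Only this last one lost its call when an array was left out, with an adjusted p of 0.0832 without control array 2. All 4 probe sets read between 38.8% and 45.7% of control, so the Rif1 message was lowered and not removed.

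Most of the transcriptome differed little at 48 h. Of 27664 probe sets tested, 88 rose (0.318%) and 52 fell (0.188%) at an adjusted p under 0.05 in limma, while 3047 had an unadjusted p under 0.05. The calls covered 56 named genes that rose and 40 that fell, and the arrays of the groups did not overlap at any of the 140 called probe sets. Large changes were mostly upward, since 27 probe sets rose and 5 fell at least 2-fold, and 4 of those 5 read Rif1. In contrast, 21696 probe sets (78.4%) were steady, meaning that the 95% interval of their log2 fold change lay wholly within -0.5 to 0.5.

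The number of calls depended on the scaling and on the arrays used. Without Rif1 shRNA array 1 or 2 the prior degrees of freedom were 448 and infinite, against 7.1 in the main fit. The spread there was almost wholly pooled over probe sets, so calls kept in those settings do not measure stability. As deposited, 62.9% of calls were rises. After quantile normalization 154 rose and 140 fell (52.4% rises), and with each array centred on its median 185 rose and 263 fell (41.3% rises). Of the 140 calls, 140 and 137 were shared with these settings. Without control array 1, 38 rose and 20 fell, and without control array 2, 36 rose and 15 fell. The counts were 780 and 557 without Rif1 shRNA array 1 and 463 and 545 without Rif1 shRNA array 2, and both of these settings shared all 140 calls. A total of 38 calls passed in all 4 of these settings.

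**Figure D1:**
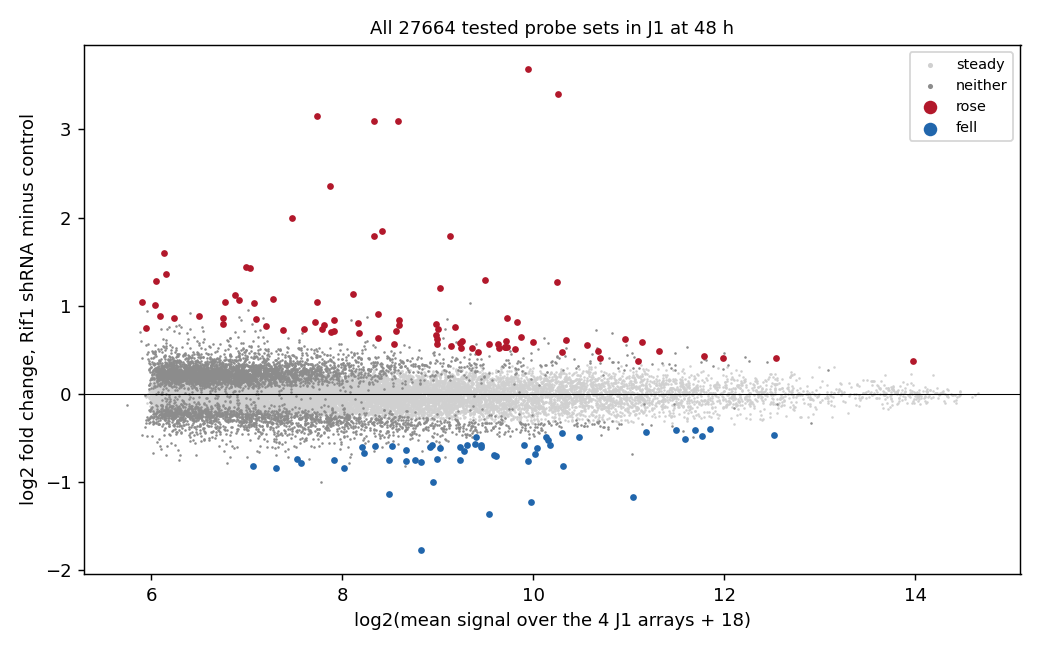
Log2 fold change (Rif1 shRNA minus control, vertical axis) against log2 of the mean signal over the 4 J1 arrays plus 18 (horizontal axis), for each of the 27664 tested probe sets. Red points mark the 88 that rose and blue points the 52 that fell, pale grey points are steady and darker grey points neither. The 5 points above 3 are probe sets of 2-cell or predicted genes, and the lowest point is Acta2.

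Genes of the 2-cell embryo held the largest rises. Of 30 genes on the 2-cell list, 10 passed the filter on dim signal, 6 were too dim and 14 had no probe set of their own symbol. A member that is bright only in 1 group passes the filter through that group, so the count describes these 10 genes only. Of the 10, 6 rose and 0 fell, where 0.364% of all genes tested rose. The list's median log2 fold change was 1.20 against 0.02 for all genes. It was 0.71 with an offset of 72, and 0.54 without the filter on dim probe sets, when 8 of 16 members rose. On 8 of the 10 both Rif1 shRNA arrays lay above both control arrays, against 21.6% of all genes, and on 0 of the 10 below, against 21.3%.

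Gm20767, a predicted gene, read 58.3 and 41.9 on the control arrays and 541 and 579 on the Rif1 shRNA arrays, an 8.54-fold rise (log2 fold change 3.09, SE 0.14, adjusted p 1.63e-05). AF067061, another gene of the 2-cell stage, read 61.0 and 56.1 against 378 and 372, a 5.13-fold rise (adjusted p 3.17e-05). Usp17la, a deubiquitinase gene, read 53.6 and 52.5 against 278 and 254 (log2 fold change 2.00, adjusted p 0.000131). These 3 genes stood below the array median on every control array and well above it on both Rif1 shRNA arrays. BC080696 read 15.3 and 18.4 against 99.5 and 76.2 (log2 fold change 1.60, adjusted p 0.0023). Tcstv3, of the 2-cell-stage variable group, read 23.7 and 20.5 against 82.0 and 87.6 (log2 fold change 1.36, adjusted p 0.00261). Sp110, a nuclear body protein gene on the list, read 56.9 and 50.2 against 127 and 131 (log2 fold change 1.04, adjusted p 0.0134). Of its 3 tested probe sets only 1 was called, and their log2 fold changes ran from -0.01 to 1.04. With the mean over the probe sets of a gene, 5 of the 10 list members rose. Of the 6, only Sp110 lost its call on leaving out an array, at an adjusted p of 0.0962 without control array 2.

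The other 4 list members tested lay between -0.19 and 0.30 on the log2 scale. Among them Fam25c read 528 and 516 on the control arrays against 635 and 655, and Eif1a read 1005 and 1113 against 1007 and 1013, and both were steady. Not all of the 10 tested members therefore rose. A probe set shared by Eif1a and 2 related loci did rise, as given below, so the steady Eif1a reading does not cover those loci. In bulk samples, more cells of a type and more RNA per cell cannot be told apart.

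The probe sets with the very largest rises were annotated to several genes and so name none. They were chosen for description after their values were seen, and those dim on the control arrays can pass the filter through the Rif1 shRNA arrays alone. Probe set 1457033_at, annotated to 6 genes that include Zscan4a, Zscan4c, Zscan4d and Zscan4f, read 129 and 119.9 on the control arrays and 1916 and 1720.1 on the Rif1 shRNA arrays, a 12.9-fold rise (log2 fold change 3.69, adjusted p 5.18e-07). Probe set 1443961_at, annotated to 7 predicted genes, read 225 and 165 against 2247 and 2184 (10.6-fold, adjusted p 4.42e-06). Probe set 1444529_at, annotated to 3 predicted genes, read 24.04 and 25.9 against 342 and 387 (8.89-fold, adjusted p 9.52e-06). Both Rif1 shRNA arrays stood far above both control arrays on each of these. Probe set 1427479_at, shared by Eif1a and 2 related loci, read 62.2 and 62.0 against 679.9 and 656 (8.56-fold, adjusted p 3.28e-06). The probe set of Eif1a alone was steady, as given above. A probe set shared by 9 genes of the Ott family on the X chromosome, 1427346_at, read 49.9 and 50.8 against 191 and 145 (2.70-fold, adjusted p 0.00558).

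**Figure D2:**
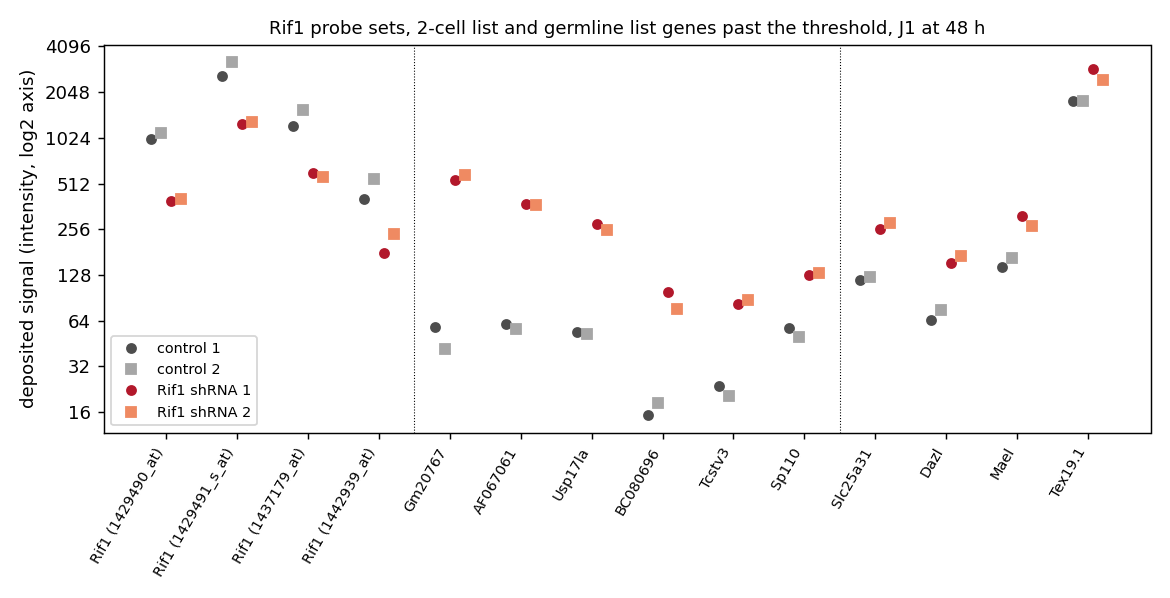
Deposited signal (log2 axis) on each of the 4 J1 arrays for the 4 Rif1 probe sets, the 6 genes of the 2-cell list and the 4 of the germline list that passed the threshold, with grey symbols for control arrays and red or orange ones for Rif1 shRNA arrays. Both Rif1 shRNA arrays lie below both control arrays at each Rif1 probe set and above them at every other gene, with the widest gap at Gm20767 and the narrowest at Tex19.1.

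Histone genes formed another group of rises. Replication-dependent histones package newly made DNA, and their messages usually end in a stem-loop in place of a poly(A) tail. Probe sets annotated only to linker (H1) or clustered H2A, H2B, H3 and H4 genes were counted as 1 set, which was chosen after values were seen and leaves out variants such as H2ax, H2az1, Macroh2a1 and H3f3a. Of 36 such probe sets, 22 passed the filter, 8 rose and 0 fell, where 0.318% of all probe sets rose. Their median log2 fold change was 0.44, and on 18 of the 22 both Rif1 shRNA arrays lay above both controls, against 20.8% of all probe sets. H1f2, a linker histone, had 3 tested probe sets of its own. Of these, 1 was not called (log2 fold change 0.21) and 2 were called. The brighter, 1436994_a_at, read 242 and 223 on the control arrays and 858 and 844 on the Rif1 shRNA arrays (3.47-fold, log2 fold change 1.79, SE 0.09, adjusted p 3.28e-05). The other, 1416101_a_at, read 126 and 126 against 503 and 461 (3.47-fold, adjusted p 0.000102).

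Core histone probe sets mostly match several gene copies, so they are described by family, and these were chosen after their values were seen. Among probe sets for H2B, 1418072_at, shared by H2bc4, H2bc6 and H2bc8, read 138 and 124 on the control arrays and 546 and 488 on the Rif1 shRNA arrays (3.59-fold, adjusted p 0.000111). A broader H2B probe set, 1452540_a_at, read 710.5 and 671 against 1892 and 1509 (2.41-fold, adjusted p 0.00125). The H4 probe set 1424854_at, shared by 13 genes, read 160.0 and 151 against 381 and 344 (2.19-fold, adjusted p 0.00293), and 1422948_s_at read 599 and 566 against 1171 and 986 (1.82-fold, adjusted p 0.00849). For H3, 1460314_s_at read 416 and 403 against 804 and 621 (1.70-fold, adjusted p 0.0345). H1, H2B, H3 and H4 each had 1 to 3 called probe sets, while 0 of the 3 tested for H2A passed. The separate list of histone genes with a symbol of their own, variants included, moved less. Of its 12 tested members 1 rose (H1f2), 0 fell and 8 were steady, with a median of 0.09. Its 2 brightest steady members were H2A variants. H2az1 read 9057 and 9431 against 9441 and 9307, and H2az2 read 5163 and 4944 against 5555 and 5144. H2ax lay lower on both Rif1 shRNA arrays, at 1291 and 1278 against 1102 and 1045, and was steady. Of the 8 rises, 6 passed without each array in turn.

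**Figure D3:**
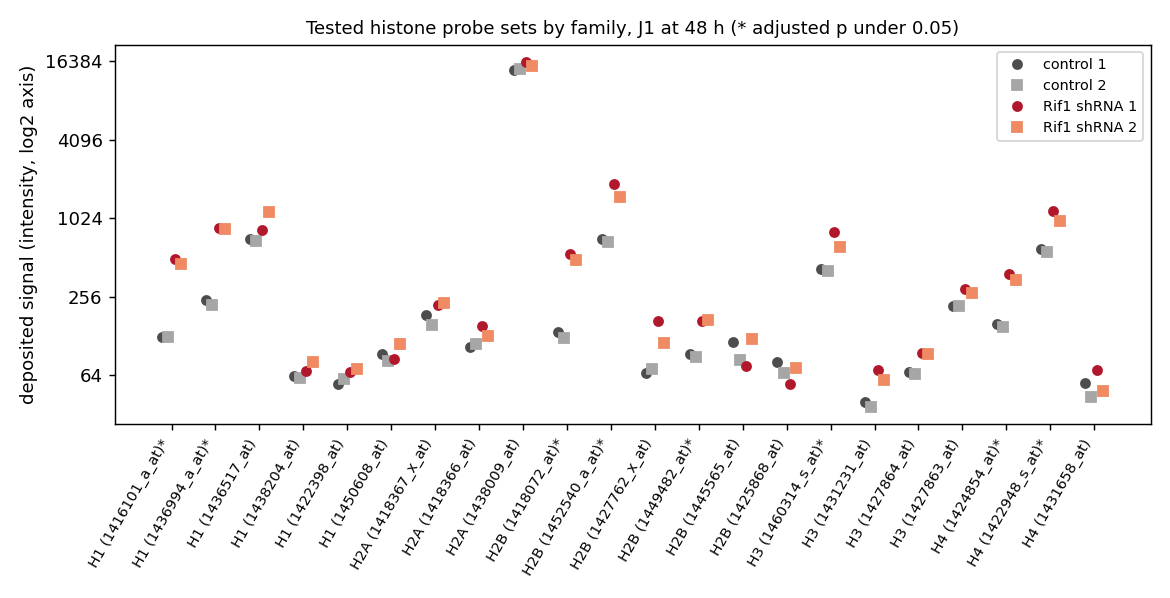
Deposited signal (log2 axis) of the 22 tested histone probe sets on the 4 J1 arrays, grouped by family from H1 to H4, with an asterisk where the adjusted p was under 0.05. The 8 marked probe sets separate the Rif1 shRNA arrays from the control arrays, from 1.70-fold at an H3 and an H2B probe set to 3.59-fold at 1418072_at of H2B.

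Germline genes held 4 rises and 0 falls among 31 members tested, where 0.364% of all genes rose, with 6 of the 39 listed too dim and 2 without a probe set of their own. The list's median log2 fold change was 0.16. Both Rif1 shRNA arrays lay above both controls for 16 members and below for 3, against 21.6% and 21.3% of all genes. Of the 31, 17 were steady (54.8%, against 79.6% of all genes). Dazl, an RNA-binding protein of germ cells, read 65.0 and 75.7 on the control arrays against 154 and 171 at 1449502_at (2.05-fold, adjusted p 0.0156). Its second probe set, 1419542_at, read 54.2 and 57.4 against 151 and 135 (2.18-fold, adjusted p 0.00901). Slc25a31, the ADP/ATP carrier of the testis, read 118 and 124 against 256 and 282 (2.06-fold, adjusted p 0.00765). Mael, a piRNA pathway protein that restrains transposons, read 145 and 165 against 312 and 271 (1.79-fold, adjusted p 0.0258). Tex19.1, expressed in germ cells and ES cells, read 1797 and 1778 against 2918 and 2480.5 (log2 fold change 0.59, adjusted p 0.0258).

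Of these, Slc25a31 passed without each array in turn. Without control array 1 only 1 of the 4 passed and without control array 2 only 2, with the lost adjusted p between 0.0544 and 0.0989. Ddx4, the VASA helicase, stayed steady at 422 and 418 against 431 and 368, as did the germ cell gene Rnf17 at 629 and 561 against 561 and 550.5. The germ cell RNA-binding gene Rbm46 was not on the list and was among the 30 largest rises (26.4 and 29.2 against 62.8 and 55.4, adjusted p 0.0475). A gene this dim on the control arrays can pass the filter on dim signal through the Rif1 shRNA arrays alone. The homeobox gene Rhox13 was another of the 30 largest rises (283 and 248 against 447 and 491, adjusted p 0.0188). Rbm46 lost its call without either control array (adjusted p 0.218 and 0.118), and Rhox13 without control array 2 (0.0872).

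The start sites of some of these genes hold an E-box, CACGTG, the site bound in ES cells by the MGA and MAX factors of a germline repressor complex. RefSeq promoter windows of one fixed length around the start site (build GRCm38.p6) were searched on both strands. CACGTG was found in 10 of the 41 risen genes that had a window (24.4%), in 3 of the 29 fallen genes (10.3%), in 11.3% of tested genes and in 8.09% of all genes with a window. It was found in 11 of 25 tested germline genes (44%), of which most were not called. The risen genes include some that can pass the filter on dim signal through the Rif1 shRNA arrays alone. The stretches below are shown because they carry the match in genes that rose. They lie upstream of the start site and read in the direction of the gene, with the match in capitals.
Slc25a31, chr3:40708728-40708833, plus strand: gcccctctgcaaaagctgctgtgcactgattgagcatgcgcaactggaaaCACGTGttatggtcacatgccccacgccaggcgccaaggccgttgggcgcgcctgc
Mael, chr1:166238912-166238994, minus strand: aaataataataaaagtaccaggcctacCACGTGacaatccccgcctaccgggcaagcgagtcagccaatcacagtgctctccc
Rbm46, chr3:82876484-82876567, minus strand: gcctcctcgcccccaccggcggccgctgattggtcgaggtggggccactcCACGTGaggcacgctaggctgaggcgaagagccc
The match runs from -93 to -88 in Slc25a31, from -223 to -218 in Mael and from -34 to -29 in Rbm46, counted from the start site. Dazl has no CACGTG in its window but holds the shorter core ACGTG at -93 to -89 and, on the other strand, at -36 to -32. ACGTG lies within CACGTG, so the matches overlap. A match describes the sequence and is not evidence of binding.
Dazl, chr17:50293621-50293763, minus strand: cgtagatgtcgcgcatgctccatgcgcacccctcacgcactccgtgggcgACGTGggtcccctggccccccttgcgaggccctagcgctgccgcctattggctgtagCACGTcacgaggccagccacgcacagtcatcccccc
Of the 6 tested 2-cell genes with a window, 0 held any of the 5 motifs searched.

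Other large rises lay outside the 2-cell, histone and germline groups. Genes dim on both control arrays, such as 3110040M04Rik, Ccser1 and Mgll, can pass the filter through the Rif1 shRNA arrays alone. Among genes with a single symbol, 3110040M04Rik read 18.1 and 23.3 on the control arrays and 79.2 and 72.4 on the Rif1 shRNA arrays (2.43-fold, adjusted p 0.00498). Ccser1 read 20.5 and 21.8 against 66.6 and 59.4 (2.07-fold, adjusted p 0.0106), and 1427487_at of Abcf2 read 85.0 and 78.1 against 173 and 211 (2.10-fold, adjusted p 0.015). Of the 2 probe sets of Abcf2, only this one was called. Ctsc, the lysosomal protease cathepsin C, read 208 and 216 against 437 and 391 (1.88-fold, adjusted p 0.00849). Taf9b, a subunit of general transcription complexes, read 80.0 and 79.9 against 155 and 162 (1.81-fold, adjusted p 0.0258). Ctsc passed without each array in turn, and Taf9b did not pass without either control array (adjusted p 0.118 and 0.137).

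Among the rest of the 30 largest rises, Fabp5, a fatty acid binding protein, read 665 and 616 on the control arrays against 1226 and 1054 (1.76-fold, adjusted p 0.00901), and Mgll, a monoglyceride lipase, read 34.2 and 25.6 against 65.1 and 75.2 (1.84-fold, adjusted p 0.0388). Mgst1, a microsomal glutathione transferase, read 143 and 152 against 270.3 and 263 (1.72-fold, adjusted p 0.0229). The actin-binding profilin Pfn2 read 364 and 371 against 627 and 619 (1.66-fold, adjusted p 0.00901). Fabp5 and Pfn2 passed without each array in turn and their calls were shared by all their tested probe sets, 2 and 3. The nucleosome-binding gene Hmgn3 rose 1.76-fold and the cofactor gene Pcbd2 1.78-fold, and the neuronal filament gene Prph rose 1.67-fold and the reticulon Rtn1 1.66-fold. The Rab regulator Tbc1d12 and the ubiquitin ligase Rnf13 rose 1.65-fold and 1.61-fold. D13Ertd608e, Gm7969 and Gm364 rose 1.73-fold to 1.85-fold from control signals under 70. Of the 30 largest rises, 16 passed without control array 1, 14 without control array 2 and 30 without either Rif1 shRNA array. The lost adjusted p lay between 0.0544 and 0.241.

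Where a gene had more than 1 tested probe set, agreement varied. Of 30 such genes that rose, 27 had all probe sets on the same side of 0, and 9 had at least 2 called. Of 27 such genes that fell, 22 had all on the same side, and 4 had at least 2 called. Among the genes with the most called probe sets were Vamp3, a vesicle fusion protein, and Mrpl13, a mitochondrial ribosomal protein, with 3 each. They were picked out after their values were seen. Vamp3 read 614 and 687 on the control arrays against 995 and 1003 at its brightest probe set (adjusted p 0.0233), and Mrpl13 read 692 and 735 against 1164 and 1089 at its brightest (adjusted p 0.0134).

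Genes of the actin cytoskeleton held the largest falls apart from Rif1. Serum response factor drives many of them, and fibroblasts express them strongly. Of 25 members tested, 4 fell and 0 rose, where 0.257% of all genes tested fell. An unadjusted p under 0.05 was seen for 12 members, called or not, all lower, against 3047 of all 27664 probe sets. Of the 25, 17 lay lower on both Rif1 shRNA arrays and 1 higher, against 21.3% and 21.6% of all genes. The median log2 fold change was -0.22. Acta2, smooth muscle actin, read 739 and 625 on the control arrays against 204 and 171 on the Rif1 shRNA arrays, 29.3% of control (log2 fold change -1.77, SE 0.12, adjusted p 0.000243). Tagln, transgelin, read 709 and 573 against 327 and 297, or 50.3% (adjusted p 0.00901). Cald1, caldesmon, read 741 and 725 against 516 and 416 (64.1%, adjusted p 0.046), although 1 of its 5 tested probe sets had a positive log2 fold change of 0.71. Ccn2, a secreted matricellular protein, read 1735 and 1566 against 1204 and 1145 (71.6%, adjusted p 0.04). The common actins did not follow. Actb read 14335 and 14378 against 13894 and 14747, Actg1 read 14829.8 and 14929 against 13129 and 14383, and both were steady. Acta2 and Tagln passed without each array in turn, while Cald1 and Ccn2 lost the call without either control array (adjusted p 0.0713 to 0.218).

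Fibroblasts express these actin genes and feeders were in the dishes, so fibroblast markers are given beside this group. Of 30 feeder fibroblast markers, 21 were tested, 8 were too dim and 1 had no probe set of its own. In limma 0 rose and 0 fell, and 13 were steady. At an unadjusted p under 0.05, 2 were higher and 5 lower, against 3047 of all 27664 probe sets. The summed signal of these markers was 10409 to 11092 on the control arrays and 10547 to 10629 on the Rif1 shRNA arrays. Of the defining collagens, Col1a1 read 124 and 101 against 93.8 and 159.8, and Col3a1 was too dim to test. Col1a2 lay lower on both Rif1 shRNA arrays, at 134 and 128 against 106 and 94.9. Lgals1 and Fn1 make up most of that sum. Across the 21 tested, 7 markers lay lower on both Rif1 shRNA arrays and 3 higher, against 21.3% and 21.6% of all genes. Among them were Col5a2 (249 and 218 against 145 and 121) and Lgals1 (4577 and 3912 against 4739 and 4691), picked out after their values were seen. The part of feeder RNA in the actin falls was not tested.

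Lpp, a LIM protein of focal adhesions, was among the 30 largest falls and fell at 1455314_at (148 and 157 against 83.5 and 74.8, adjusted p 0.0345), while its brightest probe set read 172 and 169 against 122 and 138 (adjusted p 0.295). Epha4, an ephrin receptor, read 418 and 448 against 258 and 241 (59.3% of control, adjusted p 0.0163). Ddr1, a collagen receptor, read 739.7 and 672 against 482 and 438 (66.0%, adjusted p 0.0345). Ahnak, a large scaffold protein, and Hs6st1, a heparan sulfate sulfotransferase, fell to 66.2% and 66.0%. Gpx3, a secreted glutathione peroxidase, read 549 and 501 against 303 and 306 (59.4%, adjusted p 0.0134), and Cbr3, a carbonyl reductase, fell to 62.8%.

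Among the rest of the 30 largest falls, Sfmbt1, a Polycomb-related protein, read 174 and 195 against 92.2 and 98.7 (56.0%, adjusted p 0.0292). Rc3h2, an RNA-binding ubiquitin ligase, read 295 and 334 against 183 and 154 (56.1%, adjusted p 0.0267). Kmt5a, the methyltransferase of histone H4, read 818 and 832 against 516 and 575 (66.8%, adjusted p 0.0291). The cap-binding gene Ncbp2 and Mcm3ap, an mRNA export factor, fell to 62.6% and 65.7%. Zfp266 fell to 59.2%, Nfatc2ip to 59.7%, AU018091 to 61.9% and the dynein subunit Dync1li2 to 64.5%. Tbcel read 603 and 630.5 against 349 and 377. The long noncoding RNA Oip5os1 fell to 58.0%, and Prune1, Fndc3a and Prrc2b to between 66.5% and 67.1%. Of the 30 largest falls, 13 passed without control array 1, 9 without control array 2 and 30 without either Rif1 shRNA array. The lost adjusted p lay between 0.0510 and 0.332.

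Among genes of leukaemia inhibitory factor (LIF) signalling, the pathway that holds mouse ES cells undifferentiated, 2 of 14 fell and 0 rose, where 0.257% of all genes fell. Stat3, its transcription factor, read 924 and 974 on the control arrays against 575 and 579.8 on the Rif1 shRNA arrays (61.6% of control, log2 fold change -0.70, SE 0.08, adjusted p 0.00849). This brightest probe set passed without each array in turn, but of the 3 tested for Stat3 only 1 was called. Their log2 fold changes ran from -0.70 to -0.01. Pim3, a kinase, read 1290.4 and 1299 against 891 and 942 (71.2%, adjusted p 0.0306), and lost the call without control array 1 (0.127) or control array 2 (0.143). The receptor Lifr was steady at 1628 and 1897 against 1701 and 1667. The feedback inhibitor Socs3 was also steady, at 1993 and 1990.5 against 1568 and 1779, with both Rif1 shRNA arrays lower. Of the 14, 9 lay lower on both Rif1 shRNA arrays, against 21.3% of all genes, and 0 higher, and the median was -0.22. The median was -0.19 without Rif1 shRNA array 1 and -0.21 without array 2.

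Stat3 was also the only 1 of 32 pluripotency genes that fell, and 0 rose. The median of that list was -0.06, and 27 of the 32 were steady (84.4%, against 79.6% of all genes). Pou5f1, the factor Oct4, read 5383 and 4505 on the control arrays against 5182 and 4527 on the Rif1 shRNA arrays. Nanog read 2409.6 and 2309.6 against 2271 and 2163, and Sox2 read 6931 and 7084 against 6117 and 6799.9. These core factors overlapped or lay slightly lower, with log2 fold changes of -0.02, -0.09 and -0.12. Zfp42 (-0.06), Esrrb (-0.06), Klf4 (-0.22), Dppa5a (0.08) and Tdgf1 (0.18) were steady too. On leaving out an array the median of this list lay between -0.13 and -0.05.

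Of 26 tested targets of p53, a guard against DNA damage, 3 fell and 0 rose, where 0.257% of all genes fell. Of the 26, 17 were steady (65.4%, against 79.6% of all genes), and 17 lay lower on both Rif1 shRNA arrays and 3 higher, against 21.3% and 21.6% of all genes. The median log2 fold change was -0.21, and -0.10 with the mean over the probe sets of a gene. On leaving out an array the median lay between -0.22 and -0.18. Zmat3, an RNA-binding target of p53, read 1201 and 1241 on the control arrays against 699.8 and 728 (59.1% of control, adjusted p 0.00395). Trp53inp1 read 3634 and 3540.0 against 2598 and 2441 (70.4%, adjusted p 0.0158), and Ccng1, cyclin G1, read 4011 and 4056 against 2794 and 3010.2 (log2 fold change -0.47, adjusted p 0.0229). Zmat3 passed without each array in turn, and the other 2 lost the call without either control array (adjusted p 0.0692 to 0.113). Mdm2, the inhibitor of p53 and also its target, lay on the other side, steady at 972 and 1024 against 1174 and 1160.3.

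Basement membrane genes, which encode the sheet under epithelia, had 1 fall and 0 rises among 15, where 0.257% of all genes fell. Lamc1, the laminin gamma chain, read 1110.4 and 1153 on the control arrays against 771 and 731 (66.9% of control, adjusted p 0.0181), and lost the call without control array 1 (0.0569) or control array 2 (0.102). Of the 15, 10 lay lower on both Rif1 shRNA arrays, against 21.3% of all genes, and the median was -0.21. The median varied from -0.15 to -0.22 on leaving out an array. Among trophoblast markers, 2 of 15 fell. Tfap2c, a transcription factor of trophoblast and germ cells, read 1335 and 1187 against 799 and 833 at its brightest probe set (65.3%, adjusted p 0.0202), and Krt18, a keratin of simple epithelia, read 448 and 402 against 284 and 268 (66.5%, adjusted p 0.0475). The list as a whole had a median of 0.21, which was 0.09 without Rif1 shRNA array 2, 0.14 with an offset of 72 and 0.12 without the filter. Of the 15, 10 lay higher on both Rif1 shRNA arrays, against 21.6% of all genes, so the called genes stood opposite to most of the list. Krt18 lost the call without either control array (adjusted p 0.246 and 0.118), and this probe set of Tfap2c without control array 1 (0.0933).

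Hypoxia response genes are targets of the HIF factors, which low oxygen stabilises. None of 27 tested members was called in limma, but 15 higher and 1 lower had an unadjusted p under 0.05. Of all 27664 probe sets, 3047 had such a p. Both Rif1 shRNA arrays lay above both controls for 20 of the 27, against 21.6% of all genes, and the median log2 fold change was 0.36. The Rif1 shRNA arrays differed in this group. The mean level of the list above the control mean was 0.18 on Rif1 shRNA array 1 and 0.53 on array 2, and 22 of 27 members (81.5%) were highest on array 2, against 35.6% of all genes. Without Rif1 shRNA array 2 the median was 0.16, and without Rif1 shRNA array 1 it was 0.47. With the mean over the probe sets of a gene it was 0.21. Quantile normalization gave 2 rises in this list, where 92 of all 13996 genes rose. Centring on the median gave 7, against 111 of all genes, and the replicate block gave 11, against 163.

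The following members were picked out after their values were seen. Bnip3, a mitophagy receptor, read 343 and 426 on the control arrays and 520.1 and 1223 on the Rif1 shRNA arrays (log2 fold change 1.03, adjusted p 0.209). Ndrg1 read 180.3 and 169 against 264 and 406 (0.84, adjusted p 0.0768), and P4ha2, a collagen prolyl hydroxylase subunit, read 205 and 237 against 277 and 431 (0.61, adjusted p 0.209). All 3 were highest on Rif1 shRNA array 2. The brightest steady members were Mif, Kdm3a and Hif1a, and Hif1a, whose protein is the regulated subunit, read 1698 and 1838 against 1498 and 1496.

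Glycolysis genes, several of which HIF also drives, showed the same array pattern. None of 19 was called in limma, and 10 were steady. At an unadjusted p under 0.05, 8 were higher and 1 lower, against 3047 of all 27664 probe sets. The mean level above control was 0.09 on Rif1 shRNA array 1 and 0.42 on array 2, and 15 of 19 members (78.9%) were highest on array 2. The median was 0.23, or 0.07 without Rif1 shRNA array 2 and 0.41 without array 1. The glucose transporter Slc2a3 was steady at 7202 and 7923 against 7413 and 7823. Pgk1, phosphoglycerate kinase, was steady too, at 5101 and 5372 against 5544 and 6727. What set the Rif1 shRNA arrays apart here was not tested.

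The core of the hypoxia response element, ACGTG, was searched in the same promoter windows. It was found in 17 of 23 tested hypoxia genes with a window (73.9%) and 12 of 18 glycolysis genes (66.7%), against 28.3% of tested genes and 21.8% of all. The hypoxia list was made of known HIF targets and the glycolysis list holds several, so the shares describe the lists and not the knockdown. The stretches below are shown for members with a wide spread between the Rif1 shRNA arrays, with the match in capitals.
Bnip3, chr7:138909559-138909664, minus strand: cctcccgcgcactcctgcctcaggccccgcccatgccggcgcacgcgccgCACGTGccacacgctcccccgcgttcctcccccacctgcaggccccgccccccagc
P4ha2, chr11:54100796-54100900, plus strand: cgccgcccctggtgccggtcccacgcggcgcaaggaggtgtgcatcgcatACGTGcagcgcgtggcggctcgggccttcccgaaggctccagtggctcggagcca
In Bnip3 the match is palindromic and so lies on both strands, from -108 to -103. In P4ha2 it runs from -78 to -74.
A CArG box, the site of serum response factor, was found in 7 of 22 actin list genes with a window (31.8%) against 1.55% of tested genes, but in 0 of the 2 of its fallen members that had one. TGATGNAA, the ATF4 element, was found in 9 of 25 genes of the ATF4 list (36%) against 2.89% of tested genes. TTCCCGC, the E2F core, was found in 8 of 25 germline genes (32%) against 9.18% of tested genes.

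**Figure D4:**
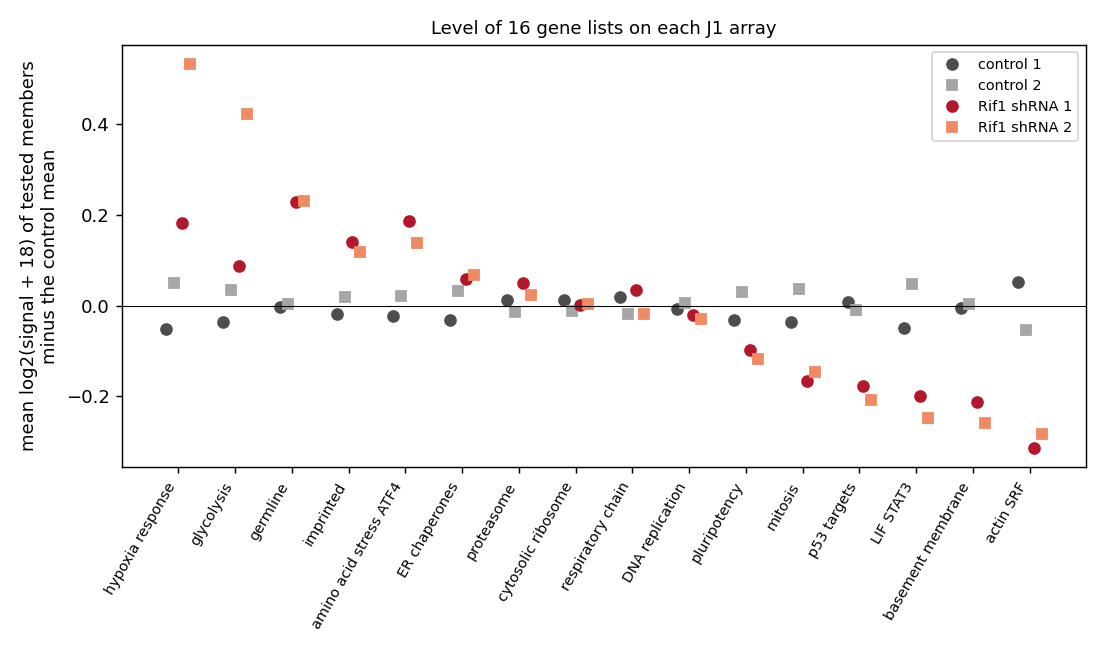
Mean log2(signal + 18) of the tested members of 16 gene lists on each J1 array, as the difference from the mean of the control arrays (vertical axis). Hypoxia and glycolysis genes stand apart on Rif1 shRNA array 2 (0.53 and 0.42) from array 1 (0.18 and 0.09), while the Rif1 shRNA arrays lie close together for the germline list (0.23 on both) and the actin list (-0.31 and -0.28).

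Amino acid stress genes driven by ATF4 had 1 rise among 28, where 0.364% of all genes rose, and 23 were steady (82.1%, against 79.6% of all genes). Ddit3, which encodes the stress factor CHOP, read 677 and 649 on the control arrays against 1018 and 926 (1.45-fold, adjusted p 0.0345), and lost the call without control array 1 (0.0870) or control array 2 (0.149). For 18 of the 28 both Rif1 shRNA arrays lay above both controls, against 21.6% of all genes, and the median was 0.13. The median was 0.13 without Rif1 shRNA array 1 and 0.17 without array 2. Asns, asparagine synthetase, was steady at 5530.3 and 5331 against 5374 and 5788. The listed chaperones of the endoplasmic reticulum were all steady, 20 of 20, and none was called in limma. At an unadjusted p under 0.05, 4 were higher and 1 lower, against 3047 of all 27664 probe sets. Among NRF2 antioxidant genes 2 of 21 rose, where 0.364% of all genes did. Gclc, an enzyme of glutathione synthesis, read 600.3 and 677 against 938 and 908 (1.44-fold, adjusted p 0.0451). Mt1, a metallothionein, read 14162 and 13948 against 18583 and 17972 (1.30-fold, adjusted p 0.0246), a change small enough that its interval also lay within the steady limits. Both lost the call without either control array (adjusted p 0.0692 to 0.227).

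Among imprinted genes 2 of 24 rose and 0 fell, where 0.364% of all genes rose. Mest read 1007 and 1068 on the control arrays against 1494 and 1409.7 (1.39-fold, adjusted p 0.0353), and Cdkn1c, an inhibitor of cell division, read 1145 and 1263 against 1647 and 1915 (1.47-fold, adjusted p 0.0408). Both lost the call without either control array (adjusted p 0.0623 to 0.172). For 15 of the 24 both Rif1 shRNA arrays lay above both controls, against 21.6% of all genes, and the median was 0.17. The share of steady members, 79.2%, was close to the 79.6% of all genes. Crabp1, a retinoic acid binding protein, was the only 1 of 17 neural ectoderm genes that rose (288 and 279 against 445 and 413, 1.48-fold, adjusted p 0.0475), and it lost the call without control array 1 (0.150) or control array 2 (0.234). Pax6 and Tubb3 were steady.

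Most members of the large protein complexes were steady. All 31 proteasome subunits were, as were the 20 chaperones given above, with 79.6% steady among all genes. So were 41 of 42 cytosolic ribosomal proteins, 42 of 44 respiratory chain genes and 18 of 19 tRNA synthetases. In limma none of these 4 lists held a call. Of their members 5, 3, 6 and 3 had an unadjusted p under 0.05, against 3047 of all 27664 probe sets. The ribosomal protein gene Rpl41 read 22105 and 22966 on the control arrays against 23909 and 22025. The proteasome gene Psma3 read 5382 and 5102 against 5119 and 5252. Split into 4 equal groups by level, the steady genes numbered 2603, 2521, 2825 and 3189 of 3499 from the dimmest to the brightest group. The complexes hold many bright genes, so nothing particular to them is read from these shares.

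Lists tied to the known roles of Rif1 were counted in the same way. Of DNA replication genes 93.9% were steady (46 of 49), of telomere genes 91.3% (21 of 23), of break repair genes 86.1% (31 of 36) and of heterochromatin genes 82.9% (29 of 35). The last 2 shares lie near the 79.6% of all genes. Bright genes were steady more often, with 3189 of 3499 in the brightest group, so nothing particular to the first 2 lists is read from their shares. There was no call in limma in any of these 4 lists. An unadjusted p under 0.05 was seen for 13, 2, 6 and 8 of their members, against 3047 of all 27664 probe sets. Pcna, the replication clamp, read 5544 and 5944 on the control arrays against 6572 and 5872, and Mcm7, of the replicative helicase, read 6320.5 and 6195 against 6323 and 5909. The phosphatase subunit Ppp1cc, whose protein binds Rif1, read 7132 and 7659.8 against 7051 and 7188. Trim28, a corepressor of transposons, read 5005 and 5243 against 4566 and 4939. Xrcc5, the larger Ku protein at DNA breaks, read 1259.5 and 1288 against 1251 and 1293. Among mitosis genes 79.3% were steady (23 of 29) and none was called in limma. An unadjusted p under 0.05 was seen for 12, all lower, against 3047 of all 27664 probe sets. On both Rif1 shRNA arrays 15 of the 29 lay lower, against 21.3% of all genes, with a median of -0.14. The median was -0.18 without Rif1 shRNA array 1 and -0.17 without array 2. Top2a, which untangles chromosomes, was steady at 4742 and 5170.1 against 4286 and 4167, with both Rif1 shRNA arrays lower.

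Lists of other lineages and signals held no call in limma. They were the primed epiblast (17 tested, 10 steady), primitive endoderm (16, 10 steady), primitive streak and mesoderm (14, 11 steady), TGF-beta and BMP targets (22, 14 steady), FGF and ERK feedback (20, 14 steady), interferon (22, 17 steady), cholesterol synthesis (20, 16 steady) and BCL2 family genes (18, 13 steady). The counts at an unadjusted p under 0.05 were 4, 3, 2, 7, 4, 3, 3 and 5 in the same order. Of all 27664 probe sets, 3047 had such a p. The median of primed epiblast genes was 0.15 and that of streak genes 0.12, while the other medians lay within 0.10 of 0. Without Rif1 shRNA array 2 these 2 medians were 0.05 and 0.03, and without array 1 they were 0.18 and 0.23. Without control array 1 only 1 of the 14 streak genes was steady. Dnmt3b, a DNA methyltransferase of the epiblast, was steady at 1168 and 1243 against 1328 and 1342. Gata6, the primitive endoderm factor, stayed dim and steady at 102 and 85.9 against 77.3 and 111.

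**Figure D5:**
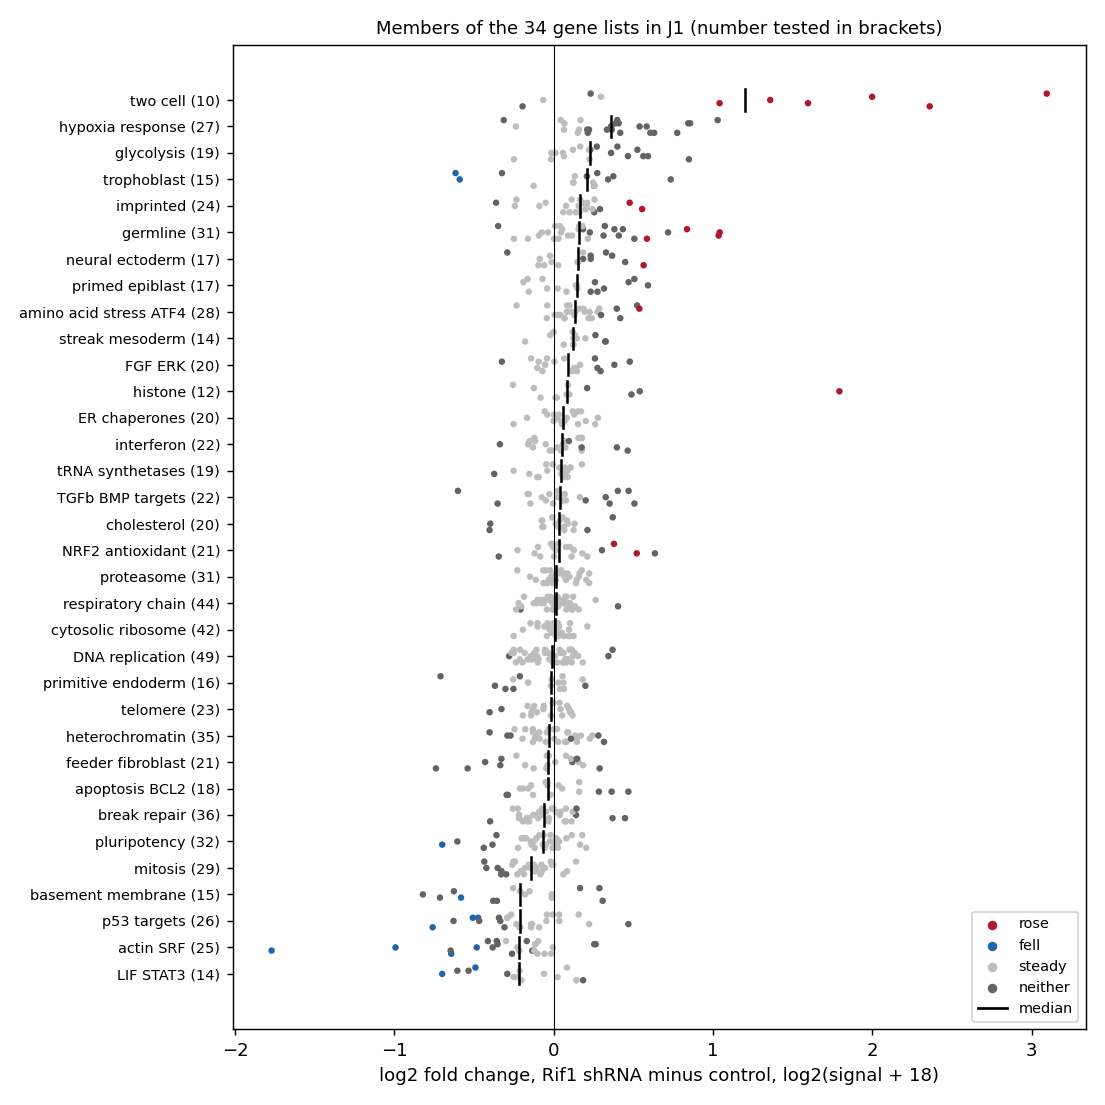
Log2 fold change (Rif1 shRNA minus control, log2(signal + 18), horizontal axis) of every tested member of the 34 gene lists, each gene at its brightest kept probe set, with a black bar at each list's median. Red and blue points rose and fell, pale points were steady and dark points neither. Of the medians, that of the 2-cell list (1.20) lies furthest from 0, those of the LIF, actin, p53 and basement membrane lists lie near -0.2, and the complexes sit on 0.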

How the data were processed

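The deposited values are linear intensity signals, 1 for each probe set on each array, made with MAS5 per the submitters' processing notes (its version was not found in the labels), and the unit was read from the values. It held 45101 probe sets with 0 missing values. The 2% trimmed mean of the 4 J1 arrays was 192 to 196, so log2(signal + 18) was used without further scaling. Control probe sets (64) were left out, and a probe set was kept where at least 2 of the 4 arrays had it past their own percentile 40. limma 3.58.1 in R 4.3.3 (lmFit, eBayes with an intensity trend, 2 residual and 7.10 prior degrees of freedom) gave two-sided p-values with Benjamini-Hochberg adjustment over all tested probe sets. The median residual SD was 0.104 on the log2 scale. The number of arrays limits the precision. The fit was tested on simulated data.

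Of 45037 probe sets, 34945 had 1 gene symbol in the platform annotation, 932 had several and 9160 had none here; 34741 of the first matched RefSeq. List genes were taken at their brightest kept probe set. Of 991 genes in 34 lists, 778 were tested. The members and lists were chosen with earlier results of these data known. Named genes are all Rif1 probe sets, the 30 largest rises and 30 largest falls with 1 symbol and no overlap of groups, per list up to 8 called and the 3 brightest steady members, and fixed ES cell and actin genes. Feeder genes, E-box and hypoxia examples outside this rule were chosen after their values were seen. Alternatives were scalings, offsets, filters, thresholds, spreads, blocks and each array left out. Same-numbered arrays tended to deviate in opposite directions (r = -0.386), so arrays of unlike number tended to deviate together. The main fit used no pairing, and a crossed pairing was run as an alternative. What the unlike-numbered arrays share was not tested. Promoters came from RefSeq (GRCm38.p6). Python 3.11.15 and matplotlib 3.10.9 made the figures.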

Additional observations from a re-analysis of the deposited data

How the results depend on the processing

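At its brightest probe set Rif1 kept its direction and its call under every alternative run, with a log2 fold change from -1.02 to -1.32 on leaving out an array. Its dimmest probe set, 1442939_at, lost the call without control array 2 and at an adjusted p under 0.01. The counts of calls moved more. Relative to 88 rises, 52 falls and 29 called list genes, quantile normalization gave 154, 140 and 52, and centring each array on its median gave 185, 263 and 71. Without the intensity trend there were 23, 3 and 9, at an adjusted p under 0.01 there were 26, 10 and 11, and with the spread shared over all 8 arrays there were 411, 537 and 104. With the replicate number as a block they were 277, 356 and 94, and with the crossed pairing, added after the deviations were seen, 587, 590 and 110. On leaving out each array in turn, rises ranged from 36 to 780, falls from 15 to 557, called list genes from 13 to 128 and steady probe sets from 12239 to 19885. With 1 residual degree of freedom left, the lone array of a group is assumed to vary like the others. Offsets of 4.5 and 72, robust variance, the filter on dim probe sets and the mean over probe sets kept all the counts of rises, falls and called list genes that they gave within 1.5 times. Steady probe sets numbered 37038 without the filter and 4701 with a limit of 0.3 in place of 0.5. No called value changed sign. Of the comparisons of called genes with alternatives, 985 kept the call and 224 lost it; for steady genes these were 1563 and 53. The causes were not tested.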
